A study of Mus musculus with 21 samples.

Results

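The genes described here make ceramides and the other lipids of the skin barrier, modify them and break them down. They comprise 38 named genes of the 18194 genes that carry a probe set with 1 symbol on the Affymetrix whole-genome mouse array used. The members were listed by name, from what their products are known to do, and each was read from the probe sets annotated to it alone. All 38 were measured, with 86 probe sets of which 84 reached the lowest intensity asked for. The 2 left out were 1 of 3 probe sets of Abhd5 and 1 of 4 of Ugcg. Where a gene had several probe sets, the one with the highest mean over all arrays stands for it unless another is named.

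Dorsal skin of female albino hairless mice (Hos:HR-1) was studied after repeated UV irradiation, and total RNA was hybridised to 21 arrays in 7 groups of 3. UV week 1, UV week 2, UV week 4, UV week 6 and UV week 8 mice were exposed 3 times a week to a lamp emitting between 275 and 380 nm, with a filter against the shortest wavelengths. The dose was raised week by week to at most 4 minimal erythemal doses (MED), 1 MED being 100 mJ per square centimetre. Control week 1 and control week 8 mice were not irradiated. All mice were 6 weeks old on arrival and were acclimated for a further week, so that skin of week 8 came from older animals than skin of week 1. The labels give these 7 groups with 3 arrays in each, whereas the study's methods speak of 6 groups of 3 mice. Whole skin was used, so fewer cells of a type and less RNA per cell cannot be told apart.

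The outermost layer of the epidermis, the stratum corneum, holds water back with stacked sheets of ceramides, cholesterol and free fatty acids. Ceramide synthesis starts when serine palmitoyltransferase joins serine to a fatty acyl-CoA. The product is reduced, given an amide-linked fatty acid by a ceramide synthase and desaturated or hydroxylated. Keratinocytes attach fatty acids of extreme length, which are hydroxylated at the far end and esterified with linoleate to give acylceramides. Ceramides also receive head groups, which makes glucosylceramide and sphingomyelin, and ceramidases cut them to sphingosine, the precursor of the signalling lipid sphingosine 1-phosphate. Mouse skin that lacks Cers3, Elovl4, Pnpla1 or Abca12 loses water and is a model of ichthyosis.

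Promoters are shown for the 4 members that passed the test at UV week 8 against both control groups in the same direction, the serine palmitoyltransferase subunit Sptlc1, the desaturase and hydroxylase Degs2, the sphingomyelin synthase Sgms1 and the neutral ceramidase Asah2. RefSeq sequences of mouse build GRCm38.p6 were used, from 250 bases before to 50 bases after the annotated start, read 5′ to 3′ on the strand of the gene, and 35 of the 38 members had an entry. The windows are chr13:53377312-53377611 for Sptlc1, chr12:108702257-108702556 for Degs2, chr19:32388463-32388762 for Sgms1 and chr19:32103091-32103390 for Asah2, all on the minus strand. For Sgms1 the most upstream of the 4 starts in the table used is shown, and the annotated gene itself reaches further upstream, to position 32389885. Capitals mark matches on either strand to TATAAA for the TATA box, CCAAT for the box of that name, GGGCGG for the GC box and TGANTCA for the AP-1 motif, none of which overlap in these windows.
Sptlc1: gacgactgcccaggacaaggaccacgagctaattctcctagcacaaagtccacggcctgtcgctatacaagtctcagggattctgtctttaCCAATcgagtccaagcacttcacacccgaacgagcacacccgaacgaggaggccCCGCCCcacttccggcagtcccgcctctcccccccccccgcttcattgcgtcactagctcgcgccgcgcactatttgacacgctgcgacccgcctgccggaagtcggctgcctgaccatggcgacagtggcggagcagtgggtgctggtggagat
Degs2: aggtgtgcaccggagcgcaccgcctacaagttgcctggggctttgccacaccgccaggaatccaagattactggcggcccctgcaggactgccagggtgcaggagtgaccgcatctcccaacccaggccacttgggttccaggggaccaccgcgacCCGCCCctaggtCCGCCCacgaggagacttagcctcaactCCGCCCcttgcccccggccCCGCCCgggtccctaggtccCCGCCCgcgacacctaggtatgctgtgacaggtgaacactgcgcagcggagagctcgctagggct
Sgms1: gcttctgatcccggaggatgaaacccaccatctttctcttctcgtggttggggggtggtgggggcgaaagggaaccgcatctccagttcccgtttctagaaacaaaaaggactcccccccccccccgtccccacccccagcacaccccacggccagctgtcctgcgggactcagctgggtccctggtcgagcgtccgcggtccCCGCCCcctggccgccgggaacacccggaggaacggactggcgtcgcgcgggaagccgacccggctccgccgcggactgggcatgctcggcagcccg
Asah2: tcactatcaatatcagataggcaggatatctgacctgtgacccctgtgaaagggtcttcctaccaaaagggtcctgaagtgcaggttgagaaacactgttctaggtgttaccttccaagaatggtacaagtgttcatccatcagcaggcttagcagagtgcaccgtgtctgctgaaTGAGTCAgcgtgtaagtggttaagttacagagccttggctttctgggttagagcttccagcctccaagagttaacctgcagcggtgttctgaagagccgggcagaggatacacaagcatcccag

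The Degs2 promoter held 5 GC boxes, the outermost at positions -94 to -89 and the innermost at -15 to -10 from the start. Sptlc1 had 1 CCAAT box and 1 GC box, Sgms1 1 GC box, and Asah2 1 AP-1 motif at positions -74 to -68. The 35 member genes with an entry had 50 promoter windows, of which 27 held a GC box, 19 a CCAAT box, 6 an AP-1 motif and 2 a TATA box. Over all 32851 promoters of the same length the shares were 35.7% for the GC box, 37.4% for the CCAAT box, 7.81% for the AP-1 motif and 13.6% for the TATA box. A match of letters is not a binding site.

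The state of the RNA differed between arrays. The log2 ratio of the 3′ to the 5′ control probe set of beta-actin, which is higher where less of the 5′ end is measured, was 3.99 on average at UV week 1, 2.85 at UV week 2, 3.46 at UV week 4, 3.86 at UV week 6, 4.27 at UV week 8, 3.22 in control week 1 and 3.33 in control week 8, and 8 of 21 arrays lay above 4. Replicate arrays correlated at 0.957 to 0.996. Array 551 of UV week 8, with a ratio of 2.77, gave the highest value of its group for 33 of the 38 members, against 36.4% of all genes, while array 552, with a ratio of 5.14, gave the lowest for 29, against 29.3% of all genes. Array 12 of control week 1, with a ratio of 4.74, was the lowest of its group for 30 members, against 33.9% of all genes. The calls of single members are also given without the 8 arrays above 4, where UV weeks 1, 6 and 8 keep 1 array each that is taken to vary as the others do. The 8 measured epidermal keratinocyte markers were clearly present, with a mean log2 intensity between 11.27 and 12.76 at UV week 8, between 11.92 and 12.69 in control week 1 and between 12.31 and 12.59 in control week 8.

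A member counts as higher or lower where limma, fitted to all 21 arrays, gave an adjusted p of at most 0.05 over the 40540 probe sets tested, with no minimum fold. At UV week 1 no member passed against control week 1 in either direction, and the backgrounds were 0% higher and 0.0115% lower of 17403 genes. At UV week 2 none passed, with backgrounds of 0.0287% and 0.046%. At an unadjusted p under 0.05, 0 members were higher and 3 lower at UV week 1, where 9.75% and 9.85% of all genes were, and 8 were higher and 1 lower at UV week 2, where 4.18% and 4.09% of all genes were. At UV week 4, 4 members were higher and 0 lower, with backgrounds of 0.517% and 1.16%. At UV week 6, 6 were higher and 2 lower, with backgrounds of 5.29% and 7.65%. Leaving out 1 array at a time gave between 1 and 6 higher at UV week 4, with 1 without array 13, 16, 331, 333 or 334 and 2 without array 12, 51, 53, 55, 112 or 114. At UV week 6 it gave between 3 and 8 higher and 0 and 3 lower, the lowest of each without array 13. The share of all genes was not counted in these fits.

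At UV week 8 against control week 1, 6 members were higher and 2 lower, with backgrounds of 5.72% and 8.35%. Against control week 8, 3 were higher and 3 lower, with backgrounds of 2.8% and 5.29%. The median log2 fold change of the 38 members was -0.17, 0.19, 0.36, 0.14 and 0.05 at UV weeks 1, 2, 4, 6 and 8 against control week 1, and the median over all genes lay between 0.01 and 0.05. Against control week 8 the members' median at UV week 8 was -0.22, and that of all genes 0.06. Members passed in both directions in late UV skin, and which of them did depended in part on the control group. Without array 551 more of all genes passed, 20.5% higher and 20.1% lower against control week 1 and 18.5% and 18.8% against control week 8, and of the members 5 were higher and 7 lower against control week 1 and 3 and 14 against control week 8. In contrast, 0 were lower against control week 1 without array 13, 16 or 555 and 1 against control week 8 without array 55, 552 or 555. Against control week 8, 1 member was higher without array 51, 53 or 555. Among the fits that left out 1 array, the share of all genes was counted only for that without array 551.

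**Figure D1:**
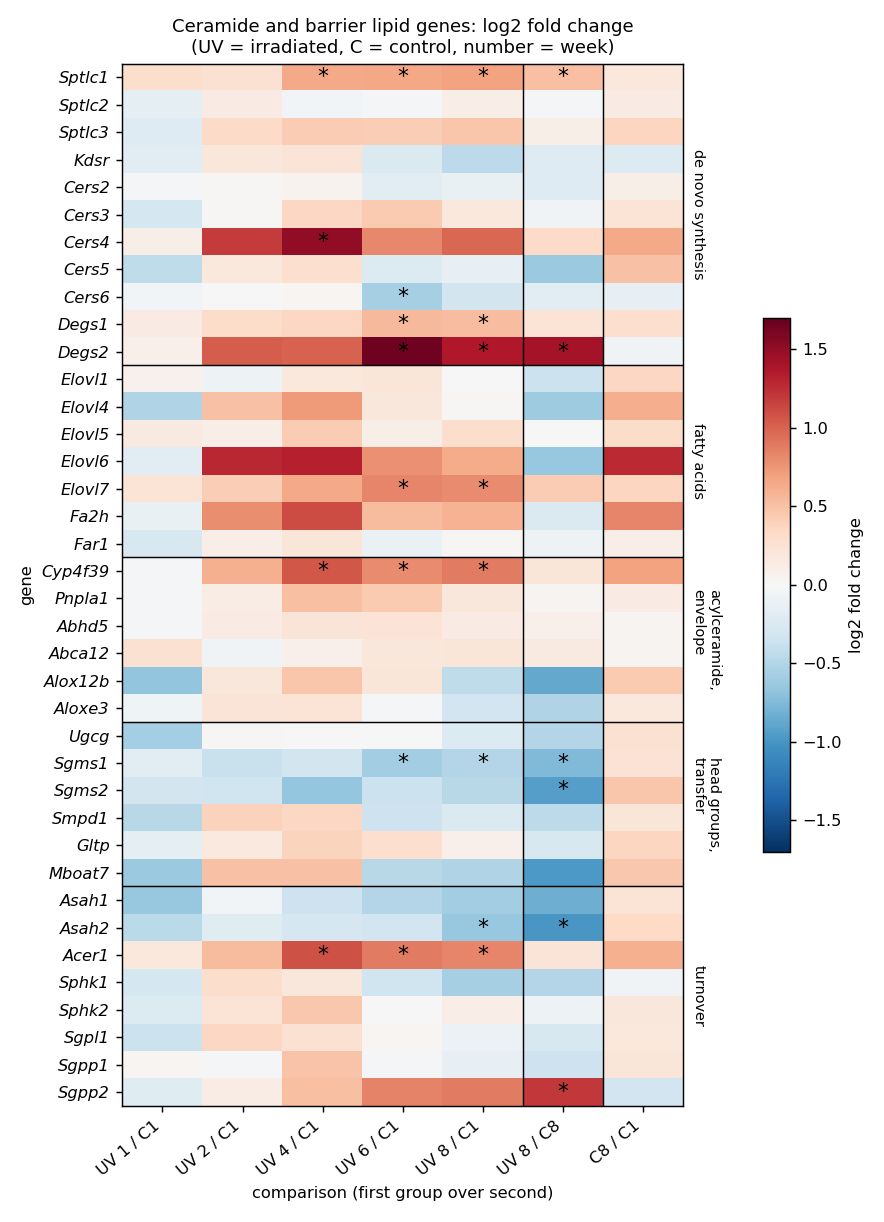
Log2 fold change (colour) of the 38 genes (rows, grouped by role) for UV weeks 1, 2, 4, 6 and 8 over control week 1, UV week 8 over control week 8 and control week 8 over control week 1 (columns), with a star where limma gave an adjusted p of at most 0.05. Degs2 at UV week 6 has the highest value, 1.65, and Sptlc1 carries a star in all 4 comparisons of UV week 4 and later.

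De novo synthesis was represented by 11 members. At UV week 8 against control week 1, 3 of the 11 were higher and 0 lower, with a median log2 fold change of 0.18. Against control week 8, 2 were higher and 0 lower, with a median of -0.03. For this and every other role, the shares of all genes were 5.72% higher and 8.35% lower against control week 1. Against control week 8 they were 2.8% and 5.29%. With so few genes in a role, a single call is not a result about that role. Sptlc1 encodes the subunit that every serine palmitoyltransferase complex contains. Its log2 intensities were 9.17, 9.11 and 9.07 at UV week 1, 8.82, 9.09 and 9.33 at UV week 2, 9.36, 9.27 and 9.77 at UV week 4, 9.57, 9.66 and 9.19 at UV week 6, 9.55, 9.44 and 9.54 at UV week 8, 8.92, 8.76 and 8.78 in control week 1 and 8.97, 8.93 and 9.09 in control week 8. From UV week 4 on all 9 UV arrays lay above all 6 control arrays. Log2 fold changes against control week 1 at UV weeks 4, 6 and 8 were 0.65, 0.66 and 0.69 (each standard error, SE, 0.15, limma adjusted p = 0.0396, 0.0123 and 0.00852). Set against control week 8, UV week 8 stood 0.51 higher (SE 0.15, adjusted p = 0.047). Leaving out 1 array kept the call at UV week 8 against control week 1, and lost that at UV week 6 without array 13 (adjusted p = 0.0651), that at UV week 4 without any of arrays 13, 16, 51, 53, 55, 112, 114, 224, 331, 333 and 334 (up to 0.204) and that against control week 8 without any of arrays 13, 16, 51, 53, 55, 112, 114, 224, 331, 333, 441, 552 and 555 (up to 0.161). Without the arrays of high beta-actin ratio the calls at UV weeks 4 and 6 held and both at UV week 8 were lost (0.78 against control week 1 and 0.55 against control week 8, adjusted p = 0.087 and 0.219).

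The other probe sets of Sptlc1 did not pass at UV week 8 and differed from the brightest one. One of nearly the same brightness (mean log2 intensity 8.95) gave 9.61, 8.34 and 8.75 at UV week 8, 8.13, 9.42 and 9.18 in control week 1 and 9.05, 8.97 and 9.21 in control week 8, which overlapped, with a log2 fold change of -0.01 (SE 0.31) against control week 1 and -0.18 against control week 8. The 2 dimmer ones stood at 0.49 (SE 0.22) and 0.31 (SE 0.17) against control week 1. With the mean of all 4 probe sets every call of Sptlc1 was lost, at 0.37 (adjusted p = 0.0939) against control week 1 and 0.22 (adjusted p = 0.325) against control week 8 at UV week 8.

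The catalytic subunits Sptlc2 and Sptlc3 did not pass, with log2 fold changes of 0.11 (SE 0.13) and 0.47 (SE 0.23) at UV week 8 against control week 1. Another probe set of Sptlc3, with a mean log2 intensity of 4.72 over all arrays, did pass, at 0.93 (SE 0.18, adjusted p = 0.00383) against control week 1 and 0.60 (SE 0.18, adjusted p = 0.0491) against control week 8. Kdsr, which reduces the ketone that serine palmitoyltransferase makes, stood at -0.44 (SE 0.34) and did not pass, whereas 1 of its other probe sets fell by 0.44 (SE 0.14, adjusted p = 0.0417).

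Degs2 encodes the enzyme that hydroxylates sphinganine chains to form phytoceramides, which are abundant in epidermis. Its log2 intensities were 6.28, 5.76 and 6.54 at UV week 1, 6.59, 7.19 and 7.64 at UV week 2, 7.25, 6.75 and 7.31 at UV week 4, 7.92, 7.68 and 7.66 at UV week 6, 7.82, 7.39 and 7.19 at UV week 8, 6.25, 6.48 and 5.58 in control week 1 and 6.17, 5.81 and 6.17 in control week 8. All 12 arrays from UV week 2 on lay above all 6 control arrays, and UV week 1 overlapped both control groups. Log2 fold changes against control week 1 were 1.04 and 1.00 at UV weeks 2 and 4 (each SE 0.27, adjusted p = 0.236 and 0.0886), which did not pass, and 1.65 and 1.36 at UV weeks 6 and 8 (adjusted p = 0.00213 and 0.00495). Set against control week 8, UV week 8 stood 1.42 higher (SE 0.27, adjusted p = 0.0079). Leaving out any 1 array kept these 3 calls of Degs2. In the fit to the compared groups alone both calls at UV week 8 were lost (adjusted p = 0.118 against control week 1 and 0.0685 against control week 8), and without the arrays of high beta-actin ratio that against control week 8 (1.77, adjusted p = 0.0559). The study lists Degs2 among the genes it picked from these same arrays, so these values are not independent evidence. The UV effect at week 8 minus the UV effect at week 1, each against the control of its week, was 1.33 (SE 0.38, adjusted p = 0.913), which did not pass although Degs2 passed at week 8 and not at week 1.

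Degs1, the desaturase that completes ceramide itself, was higher at UV weeks 6 and 8 than in control week 1. Its log2 intensities were 12.70, 12.53 and 12.78 at UV week 1, 12.63, 12.93 and 12.98 at UV week 2, 12.84, 12.97 and 12.87 at UV week 4, 13.02, 13.24 and 13.01 at UV week 6, 13.26, 12.84 and 13.09 at UV week 8, 12.38, 12.59 and 12.65 in control week 1 and 12.71, 12.79 and 12.99 in control week 8. UV week 6 lay above both control groups, while UV week 8 lay above control week 1 and overlapped control week 8. It rose by 0.55 at UV week 6 and by 0.52 at UV week 8 against control week 1 on the log2 scale (each SE 0.13, adjusted p = 0.0159 and 0.0188). Against control week 8 the change was 0.23 (SE 0.13, adjusted p = 0.255) and did not pass. Without array 13 the calls at UV weeks 6 and 8 were lost, and without array 555 that at UV week 8 (adjusted p of up to 0.0752). Both Degs1 calls were also lost without the arrays of high beta-actin ratio (0.62 and 0.64, adjusted p = 0.0518 and 0.0854). The other probe set of Degs1 stood at -0.23 (SE 0.45) against control week 1.

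Of the 5 ceramide synthases, each of which prefers fatty acids of certain lengths, Cers4 passed at UV week 4 and Cers6 at UV week 6. Cers4 gave 8.15, 8.29 and 8.91 at UV week 1, 9.04, 9.97 and 9.59 at UV week 2, 9.67, 9.97 and 9.89 at UV week 4, 8.50, 9.50 and 9.49 at UV week 6, 10.10, 8.92 and 8.94 at UV week 8, 7.77, 8.71 and 8.55 in control week 1 and 8.80, 9.16 and 9.01 in control week 8. UV week 4 was above both control groups, whereas UV week 8 overlapped control week 8 and held 1 array, 551, well above its 2 others. Cers4 rose 2.83-fold at UV week 4 (SE 0.34 on the log2 scale, adjusted p = 0.0323) and stood, on the log2 scale, at 0.98 at UV week 8 (adjusted p = 0.0638) and 0.33 against control week 8 (adjusted p = 0.528). The call at UV week 4 was lost without any 1 of arrays 12, 13, 16, 331, 333 and 334 (adjusted p of up to 0.145). Without the arrays of high beta-actin ratio that call held, and Cers4 passed also at UV week 8 (1.47, adjusted p = 0.0286). Another of its probe sets (mean log2 intensity 9.05) gave 9.67, 9.43 and 9.74 at UV week 8, 8.34, 8.04 and 8.21 in control week 1 and 8.38, 9.12 and 9.07 in control week 8. There it rose by 1.42 against control week 1 (SE 0.22, adjusted p = 0.00106) and by 0.75 against control week 8 (SE 0.22, adjusted p = 0.0469). The third probe set of Cers4 (mean log2 intensity 8.39) stood at 0.002 against control week 1 and did not pass. It gave 10.38, 6.96 and 6.85 at UV week 8, 6.82, 8.74 and 8.62 in control week 1 and 8.52, 9.02 and 8.82 in control week 8.

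Cers6, which attaches fatty acids of ordinary length, was lower at UV week 6. Its log2 values were 7.97, 7.66 and 7.85 at UV week 1, 7.95, 7.87 and 7.77 at UV week 2, 7.94, 7.76 and 7.99 at UV week 4, 7.37, 7.24 and 7.29 at UV week 6, 7.34, 7.66 and 7.67 at UV week 8, 7.71, 7.95 and 7.96 in control week 1 and 7.75, 7.83 and 7.61 in control week 8. All 3 UV week 6 arrays lay below every control array. It fell by 0.57 at UV week 6 (SE 0.12, adjusted p = 0.00916), and stood at -0.31 at UV week 8 against control week 1 (adjusted p = 0.0935). Without array 13 the call was lost (adjusted p = 0.0552), and without the arrays of high beta-actin ratio it held for Cers6 (-0.71, adjusted p = 0.0181). Cers3, the synthase of the acylceramide chain, stood at 0.18 (SE 0.30) at UV week 8 against control week 1 and -0.05 against control week 8. Cers2 and Cers5 stood at -0.12 (SE 0.16) and -0.14 (SE 0.37) against control week 1.

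**Figure D2:**
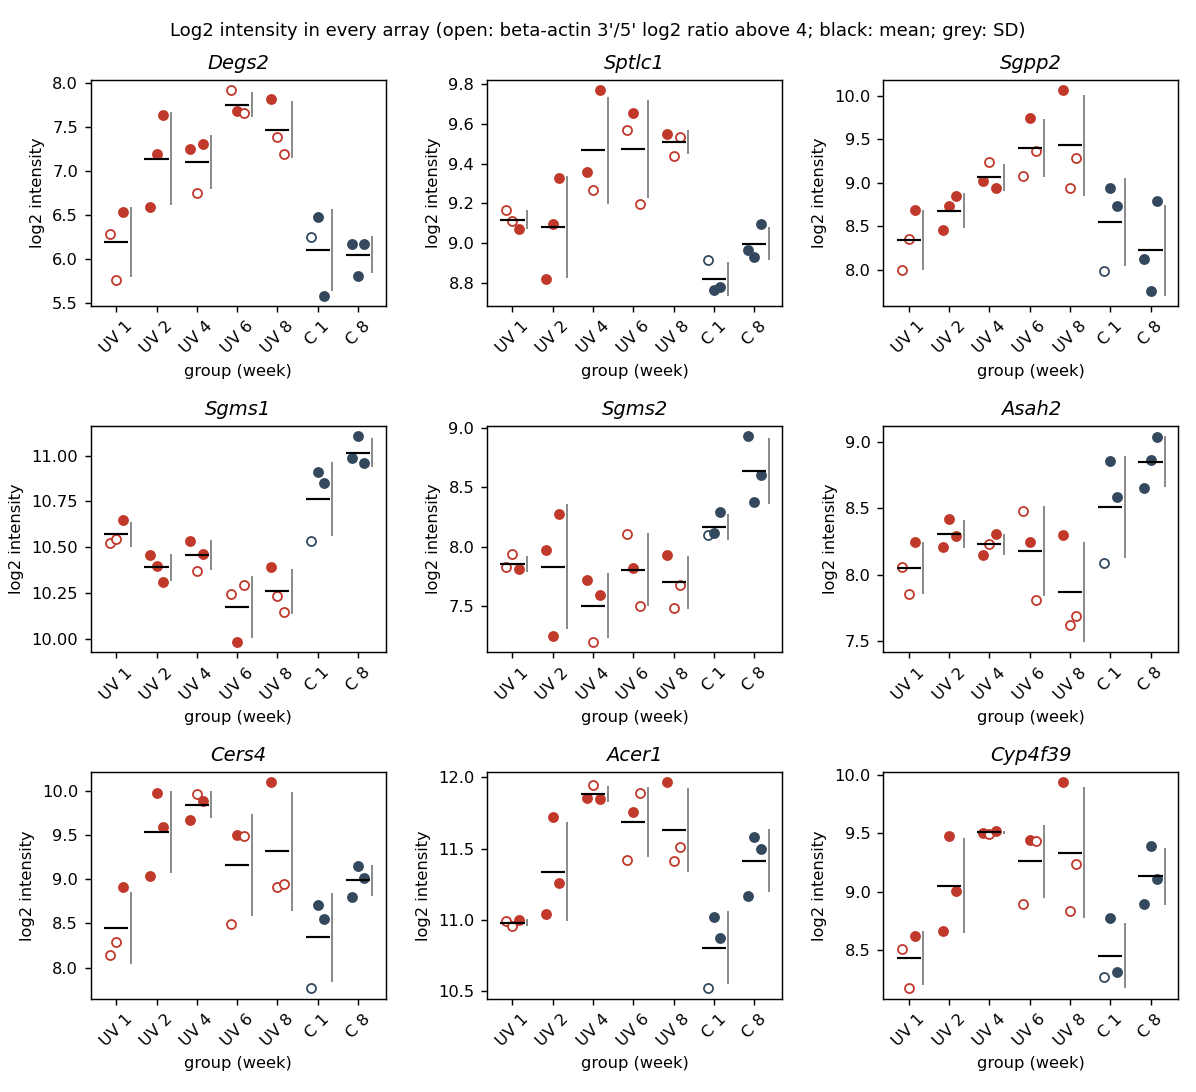
Log2 intensity in every array for 9 of the genes, by group and week (UV in red, controls in dark blue), with the group mean as a black bar, the SD as a grey line and open circles for the 8 arrays whose beta-actin 3′ to 5′ log2 ratio exceeds 4. Degs2 and Sptlc1 at UV week 8 lie above all control arrays, Sgms1 and Sgms2 below them, while Cers4, Acer1 and Cyp4f39 overlap control week 8.

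The enzymes that lengthen and modify fatty acids comprised 7 members. At UV week 8 against control week 1, 1 was higher and 0 lower (median 0.30), and against control week 8 none passed (median -0.25). Elovl7, an elongase of saturated and unsaturated acyl chains, gave 11.99, 11.93 and 12.18 at UV week 1, 12.05, 12.24 and 12.34 at UV week 2, 12.52, 12.25 and 12.55 at UV week 4, 12.47, 12.87 and 12.52 at UV week 6, 12.74, 12.44 and 12.60 at UV week 8, 11.47, 12.06 and 11.86 in control week 1 and 11.90, 12.15 and 12.46 in control week 8. Its UV week 8 arrays were above control week 1 and overlapped control week 8. It rose by 0.83 at UV week 6 and by 0.80 at UV week 8 (each SE 0.17, adjusted p = 0.00716 and 0.00729), and stood at 0.43 against control week 8 (adjusted p = 0.116). The Elovl7 call at UV week 6 held without the arrays of high beta-actin ratio and that at UV week 8 was lost (0.78, adjusted p = 0.0844). Another probe set (mean log2 intensity 6.96) separated the groups further, with 7.93, 7.31 and 7.48 at UV week 8, 6.08, 6.34 and 6.34 in control week 1 and 6.58, 6.66 and 6.92 in control week 8. At that probe set the log2 fold change at UV week 8 was 1.32 against control week 1 and 0.85 against control week 8 (each SE 0.16, adjusted p = 0.000122 and 0.006). Of the 6 tested probe sets of Elovl7, 2 passed at UV week 8 against control week 1, and the lowest stood at 0.25. That one (mean log2 intensity 11.43) gave 12.29, 10.83 and 11.38 at UV week 8. It gave 10.58, 11.72 and 11.45 in control week 1 and 11.25, 11.40 and 11.90 in control week 8, which overlapped. Elovl7 was also picked by the study from these arrays.

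Elovl6 extends palmitate to stearate, Fa2h hydroxylates the fatty acid of ceramides and Elovl4 makes the longest chains. None of them passed in any comparison, that of the control groups included. Control week 8 stood above control week 1 by 1.27, 0.84 and 0.62 for Elovl6, Fa2h and Elovl4, and for Elovl4 these groups overlapped. Elovl6 gave 13.14, 11.52 and 11.78 at UV week 8, 11.07, 11.80 and 11.69 in control week 1 and 12.64, 12.84 and 12.90 in control week 8, with 12.68, 12.97 and 12.86 at UV week 4. The 3 control week 8 arrays lay above the 3 of control week 1, and UV week 8 overlapped both. Its log2 fold changes at UV week 8 were 0.63 (SE 0.36) against control week 1 and -0.65 (SE 0.36) against control week 8, of opposite sign. Fa2h stood at 0.59 and -0.25 (each SE 0.31), and Elovl4 at 0.01 and -0.61 (each SE 0.38). Elovl1 and Elovl5, elongases of very long and of polyunsaturated chains, lay between -0.36 and 0.30 in both comparisons at their brightest probe sets. Over all their probe sets, values against control week 1 ran from -0.97 to 0.43 for Elovl1 and from -0.56 to 0.30 for Elovl5, and none passed.

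Far1 reduces fatty acyl-CoA to fatty alcohol, a building block of ether lipids. It was picked by the study from these arrays, and its probe sets disagreed in size. The brightest gave 10.24, 9.09 and 9.48 at UV week 8, 9.07, 9.87 and 9.79 in control week 1 and 9.52, 9.62 and 9.93 in control week 8, ranges that overlapped, with a log2 fold change of 0.02 (SE 0.27) against control week 1. Another (mean log2 intensity 8.31) gave 9.01, 8.47 and 9.32 at UV week 8, 7.60, 7.96 and 7.84 in control week 1 and 7.83, 7.83 and 8.29 in control week 8, without overlap. At that probe set Far1 rose by 1.13 against control week 1 and by 0.95 against control week 8 (each SE 0.19, adjusted p = 0.00182 and 0.0103). Its 3 remaining probe sets stood between 0.13 and 0.69 against control week 1.

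Of the 6 genes of acylceramide formation and the lipid envelope, 1 was higher and 0 lower at UV week 8 against control week 1 (median 0.16) and none passed against control week 8 (median 0.07). Cyp4f39 hydroxylates the far end of the ultra-long fatty acids of acylceramides. It gave log2 intensities of 8.51, 8.18 and 8.62 at UV week 1, 8.67, 9.48 and 9.01 at UV week 2, 9.51, 9.50 and 9.52 at UV week 4, 8.90, 9.44 and 9.43 at UV week 6, 9.93, 8.83 and 9.24 at UV week 8, 8.27, 8.77 and 8.32 in control week 1 and 8.90, 9.39 and 9.11 in control week 8. UV week 4 lay above both control groups, and UV week 8 above control week 1 only. Against control week 1 it rose by 1.06, 0.81 and 0.88 at UV weeks 4, 6 and 8 (each SE 0.25, adjusted p = 0.0442, 0.0439 and 0.0299), and stood at 0.20 against control week 8 (adjusted p = 0.603). The call at UV week 8 was lost on leaving out any 1 of arrays 12, 13, 16, 551 and 555 (adjusted p of up to 0.0927), that at UV week 6 without any of 12, 13, 16, 55, 112, 225, 331, 333, 334, 443 and 445 (up to 0.142) and that at UV week 4 without any of 12, 13, 16, 51, 53, 55, 112, 114, 225, 331, 333, 334, 443 and 555 (up to 0.149). Without the arrays of high beta-actin ratio the Cyp4f39 calls at UV weeks 4 and 8 held and that at UV week 6 was lost (0.90, adjusted p = 0.0818).

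The later steps of acylceramide formation did not pass. Pnpla1, which transfers linoleate to the hydroxylated chain, and Abhd5, which assists it, stood at 0.19 (SE 0.20) and 0.14 (SE 0.13) at UV week 8 against control week 1. Abca12, which loads lipids into lamellar granules, stood at 0.21 (SE 0.19), and Pnpla1, Abhd5 and Abca12 lay between 0.05 and 0.16 against control week 8. The only probe set of Abca12 was dim (mean log2 intensity 4.81), and whether it was above background is not known. The lipoxygenases Alox12b and Aloxe3, which oxidise linoleate of acylceramides before they are bound to protein, stood at -0.43 (SE 0.44) and -0.32 (SE 0.23) against control week 1 and at -0.87 and -0.51 against control week 8.

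Genes that add head groups to ceramide, remove them or carry the products were grouped with Mboat7, which acylates lysophosphatidylinositol rather than ceramide. Of these 6 members, 5 had a negative value at UV week 8 against control week 1. Mboat7 had the lowest value of the 6, -0.52 against control week 1 and -0.97 against control week 8, and did not pass. Against control week 1, 0 were higher and 1 lower at UV week 8 (median -0.36), and against control week 8, 0 were higher and 2 lower (median -0.63), with all 6 values negative. Sgms1 makes sphingomyelin in the Golgi apparatus. Its log2 intensities were 10.52, 10.55 and 10.65 at UV week 1, 10.46, 10.40 and 10.31 at UV week 2, 10.53, 10.37 and 10.47 at UV week 4, 10.25, 9.99 and 10.30 at UV week 6, 10.39, 10.24 and 10.15 at UV week 8, 10.53, 10.91 and 10.85 in control week 1 and 10.98, 11.11 and 10.96 in control week 8. All 15 UV arrays were below all 3 arrays of control week 8, and UV weeks 2, 6 and 8 were also below all 3 of control week 1. It fell by 0.59 at UV week 6 and by 0.50 at UV week 8 against control week 1 and by 0.76 against control week 8 (each SE 0.12, adjusted p = 0.007, 0.0135 and 0.00295). Another probe set (mean log2 intensity 7.37) gave 7.38, 6.19 and 6.15 at UV week 8, 7.35, 8.85 and 8.52 in control week 1 and 8.39, 8.32 and 8.73 in control week 8, and its log2 fold changes against those controls were -1.67 and -1.90 (each SE 0.36, adjusted p = 0.00821 and 0.00771). Without array 13 both calls of the brightest probe set against control week 1 were lost, and without array 16 or 555 that at UV week 8 (adjusted p of up to 0.0889). The Sgms1 call at UV week 6 held without the arrays of high beta-actin ratio and those at UV week 8 were lost (-0.48 against control week 1 and -0.62 against control week 8, adjusted p = 0.11 and 0.0655). Its 2 other probe sets stood at -0.09 and -0.00 against control week 1. Sgms1 is also among the genes the study picked from these arrays.

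Sgms2, which makes sphingomyelin at the plasma membrane, gave 7.83, 7.94 and 7.81 at UV week 1, 7.97, 7.25 and 8.27 at UV week 2, 7.72, 7.20 and 7.60 at UV week 4, 8.11, 7.82 and 7.50 at UV week 6, 7.93, 7.48 and 7.68 at UV week 8, 8.10, 8.11 and 8.30 in control week 1 and 8.93, 8.37 and 8.61 in control week 8. UV week 8 lay below both control groups. It fell by 0.94 against control week 8 (SE 0.22, adjusted p = 0.0216), while -0.47 against control week 1 did not pass (adjusted p = 0.157). The call was lost without any 1 of arrays 51, 55, 552 and 555, with an adjusted p of up to 0.107, and without the arrays of high beta-actin ratio (-0.70, adjusted p = 0.323). The second probe set of Sgms2 stood at 0.09 (SE 0.18) against control week 8.

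Ugcg, the glucosylceramide synthase, and Mboat7, which acylates lysophosphatidylinositol, were both picked by the study from these arrays, and for both the probe sets differed in sign. The brightest probe set of Ugcg gave 9.37, 8.33 and 8.55 at UV week 8, 8.86, 9.04 and 9.05 in control week 1 and 9.03, 9.35 and 9.35 in control week 8, or -0.24 against control week 1 on the log2 scale (SE 0.25, adjusted p = 0.533). Another of its probe sets (mean log2 intensity 7.68) gave 7.96, 7.88 and 8.29 at UV week 8, 7.44, 7.17 and 7.08 in control week 1 and 7.17, 7.59 and 7.39 in control week 8, without overlap, and rose by 0.81 and 0.66 against those controls (each SE 0.18, adjusted p = 0.00841 and 0.0339). The brightest probe set of Mboat7 gave 8.94, 6.36 and 6.97 at UV week 8, 7.22, 8.42 and 8.18 in control week 1 and 8.50, 8.20 and 8.49 in control week 8, and its log2 fold change against control week 1 was -0.52 (SE 0.50). Array 551 stood far above arrays 552 and 555 there. Another probe set of Mboat7 (mean log2 intensity 6.72) gave 7.36, 6.96 and 7.30 at UV week 8, 6.38, 6.11 and 6.01 in control week 1 and 6.48, 6.53 and 6.48 in control week 8, a rise of 1.04 and 0.71 (each SE 0.15, adjusted p = 0.000603 and 0.0129). Smpd1, the acid sphingomyelinase, and Gltp, the glycolipid transfer protein, stood at -0.24 (SE 0.50) and 0.08 (SE 0.23) against control week 1.

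Turnover of ceramide and of sphingosine 1-phosphate was covered by 8 members, of which 1 was higher and 1 lower at UV week 8 against each control group (median -0.12 against control week 1 and -0.31 against control week 8). Acer1 encodes the alkaline ceramidase of differentiating epidermis. Log2 intensities of Acer1 were 10.99, 10.95 and 11.00 at UV week 1, 11.04, 11.72 and 11.26 at UV week 2, 11.86, 11.95 and 11.85 at UV week 4, 11.42, 11.76 and 11.89 at UV week 6, 11.96, 11.41 and 11.51 at UV week 8, 10.52, 11.02 and 10.87 in control week 1 and 11.17, 11.58 and 11.50 in control week 8. Arrays from UV week 4 on were above control week 1, and only those of UV week 4 were also all above control week 8. Against control week 1 it rose by 1.08, 0.88 and 0.82 at UV weeks 4, 6 and 8 (each SE 0.18, adjusted p = 0.00529, 0.00829 and 0.0101), against 0.21 (adjusted p = 0.449) when control week 8 was the baseline. Without the arrays of high beta-actin ratio the Acer1 call at UV week 4 held and those at UV weeks 6 and 8 were lost (0.81 and 1.02, adjusted p = 0.0652 and 0.0592). The other probe set of Acer1, which is dimmer and more variable, stood at -0.96 (SE 0.74) against control week 1.

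Asah2, the neutral ceramidase, had opposite calls at its probe sets. The brightest gave 8.06, 7.85 and 8.24 at UV week 1, 8.21, 8.42 and 8.29 at UV week 2, 8.15, 8.23 and 8.31 at UV week 4, 8.48, 8.25 and 7.81 at UV week 6, 8.30, 7.62 and 7.68 at UV week 8, 8.09, 8.86 and 8.58 in control week 1 and 8.65, 8.87 and 9.04 in control week 8. UV week 8 lay below control week 8 and overlapped control week 1. The log2 fold change was -0.98 against control week 8 (SE 0.21, adjusted p = 0.0133) and -0.64 against control week 1 (SE 0.21, adjusted p = 0.0497), and the second call was lost on leaving out any 1 of arrays 13, 16, 51, 53, 55, 112, 114, 222, 224, 225, 331, 333, 334, 443, 552 and 555 (adjusted p of up to 0.244). The call against control week 8 was lost without any 1 of arrays 55, 552 and 555 (adjusted p of up to 0.0811). Both Asah2 calls were lost without the arrays of high beta-actin ratio (-0.42 against control week 1 and -0.55 against control week 8, adjusted p = 0.305 and 0.167). Another probe set (mean log2 intensity 6.38) gave 6.39, 6.74 and 7.02 at UV week 8, 6.15, 6.03 and 5.95 in control week 1 and 6.34, 6.27 and 6.32 in control week 8, a rise of 0.67 against control week 1 (SE 0.20, adjusted p = 0.0339) and a value of 0.41 against control week 8 (adjusted p = 0.182). Asah1, the lysosomal acid ceramidase, stood at -0.59 (SE 0.26, adjusted p = 0.125) against control week 1 and -0.83 (adjusted p = 0.0563) against control week 8.

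Sgpp2, a phosphatase that returns sphingosine 1-phosphate to sphingosine, was higher at UV week 8 than in control week 8. It gave 8.00, 8.35 and 8.69 at UV week 1, 8.45, 8.73 and 8.85 at UV week 2, 9.02, 9.24 and 8.94 at UV week 4, 9.08, 9.75 and 9.37 at UV week 6, 10.07, 8.94 and 9.28 at UV week 8, 7.98, 8.94 and 8.73 in control week 1 and 8.12, 7.76 and 8.80 in control week 8. From UV week 4 on no UV array lay below a control array, although the lowest of UV weeks 4 and 8 stood next to the highest of control week 1. The log2 fold change at UV week 8 was 1.21 against control week 8 (SE 0.30, adjusted p = 0.0265) and 0.88 against control week 1 (adjusted p = 0.061), which did not pass. Without any 1 of arrays 51, 53 and 555 the call was lost, with an adjusted p of up to 0.106, and without the arrays of high beta-actin ratio it held (1.84, adjusted p = 0.0287). The difference of the UV effect between weeks 8 and 1 was 1.41 (SE 0.42, adjusted p = 0.921).

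The remaining turnover genes did not pass at their brightest probe set. Sphk1 and Sphk2, which phosphorylate sphingosine, stood at -0.56 (SE 0.30) and 0.11 (SE 0.22) at UV week 8 against control week 1. Sgpp1, the other phosphatase, and Sgpl1, the lyase that ends the pathway, stood at -0.14 (SE 0.21) and -0.10 (SE 0.23). Another probe set of Sgpl1 (mean log2 intensity 4.77) rose by 1.03 at UV week 6 and by 0.65 at UV week 8 against control week 1 (each SE 0.19, adjusted p = 0.00478 and 0.0374), and another of Sgpp1 (mean 10.24) fell by 1.07 at UV week 8 against control week 8 (SE 0.31, adjusted p = 0.0476).

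At UV week 8, Sptlc1, Degs2, Sgms1 and Asah2 passed in the same direction against both control groups, and the other calls depended on the control. Among the 38 members, 12 had a positive log2 fold change against both control groups and 17 a negative one against both. Another 9 had a positive one against control week 1 only and 0 against control week 8 only. Control week 8 itself stood above control week 1 for 33 of 38 members, with a median log2 fold change of 0.25 against -0.00 for all genes. None of these differences passed, with backgrounds of 0.046% higher and 0.0517% lower, and at an unadjusted p under 0.05 the counts were 9 higher and 0 lower, where 2.9% and 3.28% of all genes were. All 3 control week 8 arrays lay above all 3 of control week 1 for 12 members and below for 0, where 6.6% and 7.9% of all genes did. Array 12, with the high beta-actin ratio, belongs to control week 1, and its part in these differences was not tested.

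**Figure D3:**
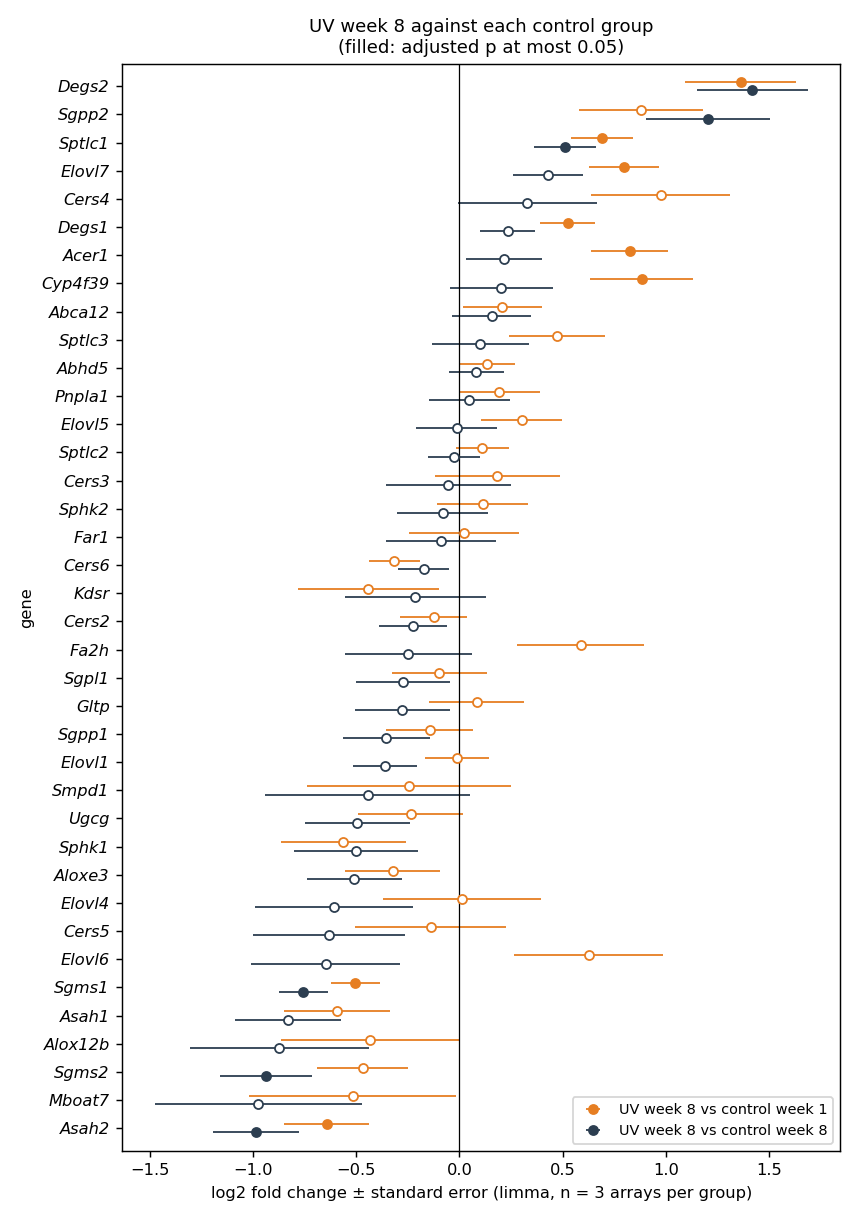
Log2 fold change at UV week 8 with its standard error (x axis) for each of the 38 genes (y axis), over control week 1 (orange) and over control week 8 (dark blue), filled where the adjusted p is at most 0.05 and with 3 arrays in each group. Degs2, Sptlc1, Sgms1 and Asah2 are filled for both, and Elovl6 stands at 0.63 and -0.65.

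The study's own list leaves out probe sets that differ at least 1.5-fold between the control groups, which at the brightest probe set removed 6 members. These were Cers4, Elovl4, Elovl6, Fa2h, Cyp4f39 and Acer1, with log2 fold changes of control week 8 over control week 1 of 0.65, 0.62, 1.27, 0.84, 0.68 and 0.61. With that exclusion, a 2-fold minimum and an adjusted p of at most 0.05 against control week 1, 7 of the 38 members had at least 1 probe set called in any UV week. They were Degs2, Elovl7, Far1, Ugcg, Mboat7 and Sgpl1 upward and Sgms1 downward, each at 1 probe set, so that 6 of the 84 member probe sets were called upward and 1 downward, against 0.693% and 2.46% of all probe sets in any UV week. All of these genes but Sgpl1 were picked by the study from these same arrays, so the count is not independent evidence. For Degs2 this was the brightest probe set, and for the other 6 it was another one. The first to be called was Elovl7 at UV week 4, at 1.02 (adjusted p = 0.00253) on the probe set described above.

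The weeks were also compared with each other. The members' median log2 fold change was 0.34 from UV week 2 over UV week 1, 0.09 from UV week 4 over UV week 2, -0.24 from UV week 6 over UV week 4 and -0.05 from UV week 8 over UV week 6, against medians of -0.05, 0.01, 0.01 and 0.01 for all genes. No member passed in any of these 4 steps in either direction. The backgrounds were 0.0115% higher and 0.00575% lower for UV week 2 over UV week 1, 0% and 0.0115% for UV week 6 over UV week 4, and 0% in both directions for the other steps. At an unadjusted p under 0.05, 12 members were higher and 0 lower at UV week 2 than at UV week 1, where 13.2% and 10.9% of all genes were. Between UV weeks 6 and 4, 1 member was higher and 3 lower, where 6.45% and 7.25% of all genes were. All 3 UV week 2 arrays lay above all 3 of UV week 1 for 12 members and below for 1, where 14.1% and 14.5% of all genes did. The mean beta-actin ratio was 2.85 at UV week 2 and 3.99 at UV week 1, and its part in this step was not tested. The difference of the UV effect between weeks 8 and 1 passed for 0 members, with backgrounds of 0% in both directions, while without adjustment 2 were higher and 1 lower at 0.05, where 2.26% and 2.11% of all genes were.

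Probe sets of the same gene often differed. Of the 38 members, 13 had 1 tested probe set and 25 several, and 16 of the 25 had probe sets of both signs at UV week 8 against control week 1. Some of these values were small, such as -0.002 and 0.11 for Sphk2, and the share over all genes was not counted. Over all 84 probe sets, 16 were higher and 4 lower in that comparison, in 13 and 3 genes, against 5.39% and 6.73% of all probe sets. Asah2 was the 1 member with calls in both directions. With the mean of all probe sets of a gene the calls of Sptlc1, Degs1, Cers4, Acer1 and Asah2 and that of Sgms2 were lost. Asah2 then stood at 0.15 against control week 1 and 0.05 against control week 8, of the opposite sign to its brightest probe set. Elovl7 kept its call at UV week 6 and not at UV week 8, and Sgms1 kept all of its calls. Probe sets can read different transcript ends, and how far that accounts for the disagreement was not tested.

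**Figure D4:**
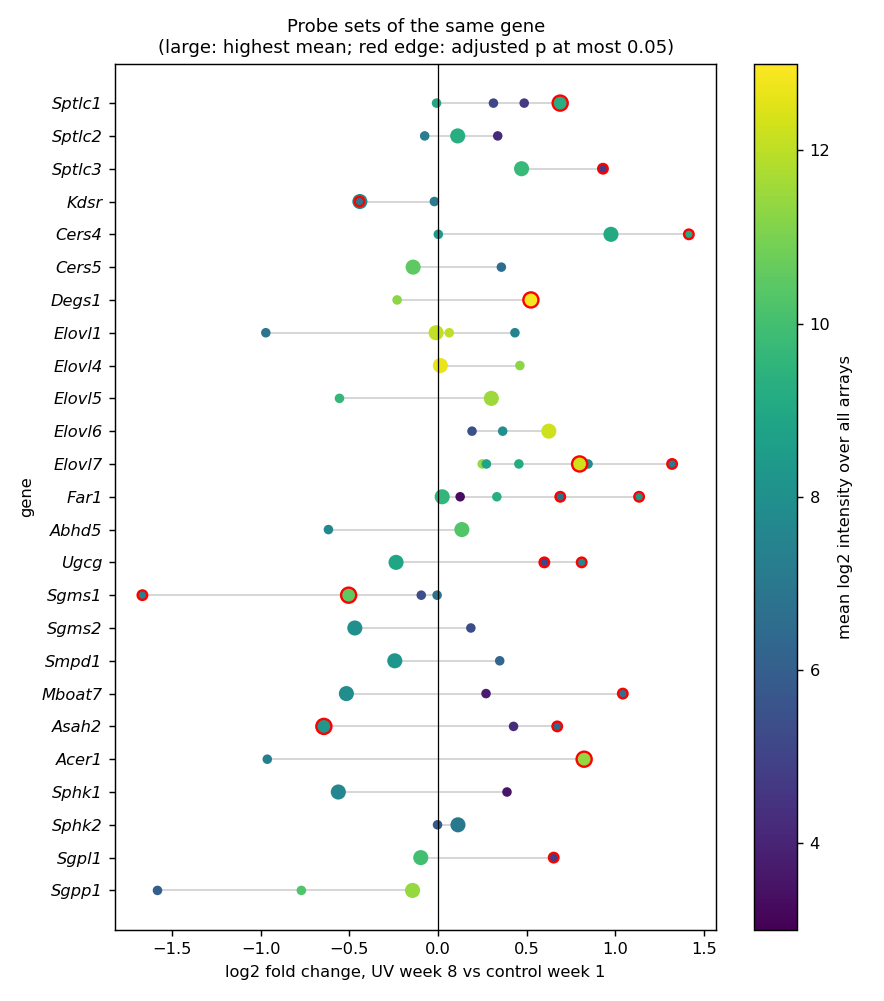
Log2 fold change at UV week 8 over control week 1 (x axis) of every tested probe set of the 25 genes with several (y axis), coloured by mean log2 intensity, with a large point for the brightest probe set and a red edge where the adjusted p is at most 0.05. The points of Asah2 with a red edge lie at -0.64 and 0.67, and those of Sgms1 at -0.50 and -1.67.

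Other genes of sphingolipid and barrier lipid metabolism were read from a list of 60, of which 53 were measured. At UV week 8 against control week 1, 1 of the 53 was higher and 5 lower (median -0.17), and against control week 8, 0 were higher and 3 lower (median -0.12), beside the backgrounds given above. Hacd3, a dehydratase of the elongation cycle that the Elovl enzymes start, rose by 0.66 (SE 0.14, adjusted p = 0.00822). The 5 that fell were Fads3, a desaturase that acts on sphingoid bases, which was 2.64-fold lower, and, on the log2 scale, Dgat2, which makes triglycerides, by 1.03, Slc27a1, a fatty acid transporter, by 0.93, Plekha8, which transfers glycosphingolipids, by 0.61 and Acer3, an alkaline ceramidase, by 0.50. Slc27a1 and Acer3 also fell against control week 8, by 0.82 and 0.52, together with the desaturase gene Scd2, by 1.08.

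No marker of any list passed at UV weeks 1 and 2 against control week 1 or between the control groups, where hardly any gene did. At an unadjusted limma p under 0.05, 4 of 5 skeletal muscle markers were lower and 0 higher at UV week 1 (median log2 fold change -0.89). So were 4 of 8 hair follicle markers at UV week 2 (median -1.29). In control week 8 against control week 1, 3 of 5 dermal adipocyte (median -0.73) and 3 of 8 hair follicle markers (median -1.17) were lower and 0 higher. At UV week 4 against control week 1, 8 of 8 hair follicle markers were lower (median log2 fold change -4.50), and none of the sebaceous gland, dermal adipocyte, fibroblast, skeletal muscle, leukocyte and epidermal keratinocyte markers passed. At UV week 6, 4 of 8 hair follicle (median -2.08), 3 of 5 dermal adipocyte, 3 of 6 fibroblast and 2 of 5 skeletal muscle markers were lower and 0 of any list higher. At UV week 8 against control week 1, 1 of 5 sebaceous gland markers was higher and 0 lower, 3 of 5 dermal adipocyte, 7 of 8 hair follicle, 3 of 6 fibroblast and 4 of 5 skeletal muscle markers were lower, and 0 of 6 leukocyte markers passed. Against control week 8, 3 of 8 hair follicle, 2 of 6 fibroblast and 3 of 5 skeletal muscle markers were lower and no other marker passed. Of 8 epidermal keratinocyte markers 0 were higher and 1, Dsc3, was lower at UV week 8 against control week 1. The mean log2 intensity of the sebaceous gland list lay between 8.00 and 9.72 at UV week 8, between 7.79 and 8.88 in control week 1 and between 8.74 and 8.98 in control week 8, and that of the adipocyte list between 8.61 and 9.47, between 9.97 and 10.68 and between 9.60 and 9.92 in these groups. The mean of the hair follicle list lay between 4.93 and 8.50 at UV week 4, between 8.18 and 9.03 at UV week 6, between 5.54 and 7.93 at UV week 8, between 10.44 and 11.05 in control week 1 and between 8.93 and 9.81 in control week 8. Of all genes, 1.16%, 7.65% and 8.35% were lower at UV weeks 4, 6 and 8 against control week 1, and 5.29% at UV week 8 against control week 8. The part of these cells in the members' changes was not tested.

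The calls rested on the spread shared by all 7 groups. With only the 6 compared arrays in the fit, 0 members passed in either direction at UV week 8 against each control group, and 2 were higher and 0 lower at UV week 6. The share of all genes that passed in these smaller fits was not counted, so the counts cannot be read as particular to the members. Degs2 kept its call at UV week 6 under every alternative, with a log2 fold change between 1.39 and 1.84. With the beta-actin ratio added to the fit, 11 members were higher and 1 lower at UV week 8 against control week 1, against 4.28% and 7.63% of all genes in that fit. Sptlc3 (adjusted p = 0.0199), Cers4 (0.00308), Elovl6 (0.0211), Fa2h (0.0126) and Sgpp2 (0.00457) passed there in addition, and Asah2 no longer did.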

How the data were processed

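Total RNA of dorsal mouse skin was hybridised to Affymetrix whole-genome mouse arrays, 3 in each of 7 groups taken from the labels. The authors deposited 1 linear, normalized intensity per probe set and array. Their methods speak of Expression Console with the Microarray Suite algorithm, whereas RMA stands in the submitters' processing notes. The values, from 4.35 to 35056, were used as they are. Detection calls were not used here, so how far a dim probe set is above background is not known.

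Values under 1 would have been set to 1 before the log2 transformation. Probe sets that reached the 20th percentile of an array at least once were kept and 64 control probe sets left out, which left 40540 of 45101. Of these, 32317 carried 1 gene symbol, 853 several and 7370 none. In limma 3.58.1 (lmFit, contrasts.fit and eBayes, run under R 4.3.3) the 7 group means were estimated from the 21 arrays together, with 14 residual degrees of freedom. The adjustment of p was that of Benjamini and Hochberg, across the tested probe sets of each comparison. The script was tested on simulated data. The methods name no test for the arrays. Array numbers are those of the labels.

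The members, the lists and the tests were chosen with earlier results of these data known. Values in every array are given for members that passed in any comparison and for those the study lists by name, and other members by fold change and standard error. Elovl6 is given by array because it differs most between the controls, a choice made after its values were seen. Alternatives covered the filter, quantile normalization, the arrays in the fit, RNA quality, the baseline, the spread and the probe set of a gene. Figures used Python 3.11.15, pandas 2.3.3 and matplotlib 3.10.9.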

Additional observations from a re-analysis of the deposited data

How the results depend on the processing

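Counts of members are those at an adjusted p of at most 0.05 from limma. In the fit to the compared groups alone, UV week 6 gave 2 higher and 0 lower, UV week 8 against control week 1 gave 0 and 0, and UV week 8 against control week 8 gave 0 and 0. With the beta-actin ratio as a covariate 9 members were higher at UV week 4, 12 at UV week 6, 11 at UV week 8 against control week 1 (1 lower), and 1 in control week 8 against control week 1. With the Gapdh ratio 7 were higher at UV week 4, 8 lower at UV week 8 against control week 8, and 1 higher in control week 8 against control week 1. Without the 8 arrays of high beta-actin ratio (over 4), where UV weeks 1, 6 and 8 keep 1 array each and that lone array is taken to vary as the rest do, 1 was higher at UV week 2, 7 higher and 1 lower at UV week 4, 0 lower at UV week 8 against control week 1, 1 higher and 0 lower against control week 8, and 1 higher in control week 8 against control week 1. With the mean of all probe sets of a gene 1 was higher at UV week 4, 3 higher and 1 lower at UV week 8 against control week 1, and 1 lower against control week 8. After quantile normalization 1 was lower at UV week 6 and 0 at UV week 8 against control week 1. With no intensity filter, and with trend and robust settings, 1 was lower at UV week 8 against control week 1. Among the fits of this paragraph, the share of all genes was counted only with the beta-actin ratio at UV week 8 against control week 1. It was 4.28% higher and 7.63% lower there, and the other counts cannot be read as particular to the members. The cause of these shifts was not tested.

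Leaving out 1 array at a time gave 0 to 1 lower at UV week 1 (1 without array 12), 1 to 6 higher at UV week 4 (1 without 13, 16, 331, 333 or 334, 2 without 12, 51, 53, 55, 112 or 114), 3 to 8 higher and 0 to 3 lower at UV week 6 (3 and 0 without 13), 4 to 7 higher and 0 to 7 lower at UV week 8 against control week 1 (7 lower without 551, 0 without 13, 16 or 555, 1 without 51, 53, 55, 112, 114, 222, 224, 225, 331, 333, 334, 443 or 552), and 1 to 3 higher and 1 to 14 lower against control week 8 (1 higher without 51, 53 or 555, 14 lower without 551, 1 lower without 55, 552 or 555). It gave 0 to 3 higher for UV week 2 over UV week 1 (3 without 116 or 551) and 0 to 1 lower for UV week 6 over UV week 4 (1 without 551). By the study's rule 5 to 10 members were called. For fits without single arrays, the share of all genes was counted only at UV week 8 without array 551, as given above. The Sptlc1 call against control week 8 was lost without any 1 of arrays 13, 16, 51, 53, 55, 112, 114, 224, 331, 333, 441, 552 and 555, and the Asah2 call against control week 1 without any 1 of 13, 16, 51, 53, 55, 112, 114, 222, 224, 225, 331, 333, 334, 443, 552 and 555.

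Log2 fold changes at UV week 8 against control week 1 turned in sign for Far1 (-0.088 with control week 8 and -0.032 with the mean of both controls as baseline, and between -0.30 and 0.28 without single arrays, with -0.30 without array 551 and -0.23 without array 12), Ugcg (0.33 without the arrays of high beta-actin ratio, 0.0011 with the beta-actin ratio as a covariate, 0.39 with the mean of all probe sets), Mboat7 (0.65, 0.10 and 0.27 in these 3 settings, and between -1.28 and 0.016 without single arrays, with 0.016 without array 552), Asah2 (0.15 with the mean of all probe sets, and 0.049 against control week 8) and Acer1 (-0.069 with the mean of all probe sets). Over 33 pairs of a named gene and a comparison, 808 of 987 values kept direction and side of the threshold, 152 lost the call and 13 gained one. No paired analysis was possible because the array numbers are not shared between groups. With 3 arrays a group, a p that misses the threshold does not show that values are alike, and dim probe sets have an unknown margin over background.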
